A study of Mus musculus with 6 samples.

Results

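The transcripts described are those of 10 genes that restrain mitogen-activated protein kinase (MAPK) signalling in the mouse mammary carcinoma line 4T1. They are 6 dual-specificity phosphatases (Dusp1, Dusp4, Dusp5, Dusp6, Dusp10 and Dusp16), the Sprouty genes Spry2 and Spry4, and the Spred genes Spred1 and Spred2. They were chosen by symbol, and each matched 1 of the 56748 gene identifiers in the files. Poly-A selected RNA was sequenced from 3 treated samples, which received Au/MoS2/Bi2S3 heterojunction particles at 125 µg/mL overnight and then 8 min of near-infrared (NIR) light, and from 3 control samples. Treated cells were grown for 24 h before the particles were added and for 24 h more after the light. All 6 samples carry the wild-type label, the same batch label and a collection time of 48 h. The labels state that RNA of cells from 3 individuals was pooled and do not say whether samples of a group were separate cultures, so the p-values rest on a spread between samples that may be technical only. Particles without light, and light without particles, were not analysed here.

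Signals from growth factor receptors pass through RAS, RAF and MEK to the kinase ERK, while stress signals pass through parallel kinase chains to JNK and p38. The dual-specificity phosphatases named here remove the activating phosphates from these kinases. Sprouty and Spred proteins act further up, between the receptor and RAF. Many of these genes are transcribed in response to the pathway that they restrain, so their transcripts are widely used as a readout of MAPK output in carcinoma cells.

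Levels are given in FPKM, fragment numbers divided by gene length and by a library size, as the authors deposited them. Each library held between 33.2 and 33.8 M reads at genes (M, 1e6) in treated samples and between 32.6 and 38.1 M in controls, worked back from the FPKM. The FPKM were divided by library sizes of 44.2 to 44.9 M in treated and 23.4 to 31.7 M in controls, worked back likewise. These sizes lay above the reads at genes in every treated library and below them in every control, so levels are not scaled to those reads. Every member's value rested on at least 1027 reads in treated libraries and at least 134 in controls. Of all 11118 genes tested, 56.1% were called, so a call is common in this comparison. The controls were the more variable group, with a median SD between samples of 0.07 on the log2 scale in treated and 0.27 in control libraries. Control 2 resembled the treated libraries (Pearson r across genes between 0.906 and 0.911) about as closely as it resembled control 3 (0.911). It was closer to control 1 (0.974), and control 3 was farthest from the treated libraries (between 0.827 and 0.839). Mitochondrially encoded mRNAs held between 1.21% and 1.32% of reads in treated libraries, against 0.0891%, 0.701% and 0.00902% in control 1, 2 and 3. Of 12 such genes tested, mt-Nd4l had the smallest p, on 27 to 41 reads in treated and at most 4 in control libraries. In all, 9 of the 12 were called higher. That count was 2 without treated 1, 2 or 3, without control 1 and with no filter on low values, 5 with a pseudocount of 0.1, 7 without control 3 and with a minimum of 5 FPKM, and 10 to 12 in the other alternatives. Of 6 epithelial markers, 3 were tested, and with the deposited scaling Epcam, Krt8 and Krt18 were called lower in treated samples. Of 16 alternatives, Krt8 was called higher in 4 (those that rescaled libraries or removed the level trend) and not called in 6, and Krt18 was not called in 2. Krt8 and Krt18 were abundant in all 6 libraries, and Epcam stood between 0.760 and 0.968 FPKM in treated and between 4.43 and 5.74 FPKM in control samples. Cdh1, Cldn7 and Krt14, which mark breast epithelium, were at or near 0 in every library (at most 0.0989, 0.114 and 0.114 FPKM). The fibroblast markers Dcn, Lum and Col1a2 and the leukocyte markers Ptprc, Adgre1 and Itgam were also at or near 0, although the summed level of 7 fibroblast markers ran from 51.9 to 55.1 FPKM in treated and from 204.3 to 1168 FPKM in control samples, nearly all of it Col1a1 and Col3a1. Of the 3 fibroblast markers tested, these 2 fell, Col3a1 by 3.05 on the log2 scale (limma adjusted p = 0.00364), and of the leukocyte and endothelial markers 1 each was tested and none was called. The summed level of 6 leukocyte markers ran from 241.8 to 259.9 FPKM in treated and from 77.02 to 444.2 FPKM in control samples, nearly all of it Cd68. The 5 endothelial markers summed to between 1.30 and 1.88 FPKM in treated and between 0.762 and 1.20 FPKM in control samples. The part of these differences in the results below was not tested.

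The set of RefSeq (GRCm38.p6) promoters used here covered 8 of the 10 genes, and those of Dusp4 and Spry4 were not in it. The 250 bases before the start site are shown for 4 members, the phosphatase gene that fell most and the one that rose most (Dusp1 and Dusp5), the other member that fell (Dusp6), and the Spred gene that rose most (Spred2). They are written 5′ to 3′ on the strand of the gene, and capitals mark CRE sites, CRE cores and CArG boxes.
Dusp1, chr17:26508473-26508722, minus strand: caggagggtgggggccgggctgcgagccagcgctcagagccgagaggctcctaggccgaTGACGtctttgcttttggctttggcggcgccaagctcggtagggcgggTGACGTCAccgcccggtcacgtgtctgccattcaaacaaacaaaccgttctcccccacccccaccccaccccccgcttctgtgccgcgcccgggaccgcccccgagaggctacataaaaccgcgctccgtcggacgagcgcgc
Dusp6, chr10:99262981-99263230, plus strand: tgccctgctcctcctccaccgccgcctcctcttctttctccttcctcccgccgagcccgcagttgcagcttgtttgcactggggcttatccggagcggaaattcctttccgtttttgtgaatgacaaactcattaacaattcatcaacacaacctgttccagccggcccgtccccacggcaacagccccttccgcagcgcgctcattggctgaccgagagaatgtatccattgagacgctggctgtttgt
Dusp5, chr19:53528895-53529144, plus strand: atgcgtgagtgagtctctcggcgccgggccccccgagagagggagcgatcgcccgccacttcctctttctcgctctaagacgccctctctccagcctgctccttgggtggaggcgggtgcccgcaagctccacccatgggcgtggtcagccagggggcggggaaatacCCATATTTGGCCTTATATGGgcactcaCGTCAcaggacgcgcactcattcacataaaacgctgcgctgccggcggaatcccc
Spred2, chr11:19924192-19924441, plus strand: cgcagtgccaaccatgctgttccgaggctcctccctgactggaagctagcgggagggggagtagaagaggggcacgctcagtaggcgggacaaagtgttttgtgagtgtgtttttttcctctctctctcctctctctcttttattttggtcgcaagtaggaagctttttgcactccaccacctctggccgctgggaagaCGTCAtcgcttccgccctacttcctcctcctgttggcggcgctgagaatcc
A CRE (TGACGTCA, a palindrome bound by CREB and ATF factors) was found in Dusp1, starting 143 bases before the start site, with a further CRE core (TGACG) at 191. Dusp5 held a pair of adjacent CArG boxes, the element bound by serum response factor, at 82 and 72 bases, and a CRE core at 55. Dusp6 held neither, and had a CCAAT box at 46 bases, an element of 33.8% of promoters that was also found in Dusp10 and Dusp16. Spred2 held a CRE core at 51 bases. Both strands were searched, and a full CRE also counts as a core. Of 32851 RefSeq promoters of this length, 1.55% held the CRE, 17.8% the core and 1.47% a CArG box. Of the 8 member promoters, 1 held the CRE (Dusp1), 4 the core (Dusp1, Dusp5, Dusp16 and Spred2) and 1 a CArG box (Dusp5). No member promoter held the AP-1 site TGANTCA, the ETS site CCGGAAGT or the TATA box TATAAA, which occurred in 6.75%, 2.88% and 12.4% of promoters. The promoters were rich in CpG, with between 12 (Spred2) and 31 (Spred1) in 250 bases, against a median of 6 over all promoters. These matches describe sequence and say nothing of binding.

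Treated and control samples were compared with limma on log2(FPKM + 1), and a gene was called at a Benjamini-Hochberg adjusted p under 0.05 over 11118 genes. Dusp5, Dusp10, Dusp16, Spry2, Spred1 and Spred2 rose in treated cells, Dusp1 and Dusp6 fell (Dusp6 not when libraries were scaled by their totals), and Dusp4 and Spry4 were not called. Thus 6 of 10 members were called higher, where 27.9% of all genes were, and 2 of 10 lower, where 28.3% were. The median log2 fold change was 0.78 over the members and -0.015 over all genes tested. Treated values all lay above the controls for 6 members and below them for 3, which held for 33.6% and 34.1% of all genes (67.7% together). The split of calls depended on the scaling between libraries. The deposited scaling called 3099 genes higher and 3141 lower. Equal FPKM totals called 7172 higher and 736 lower, with the median of all genes at 0.81. Scaling by the reads at genes, named recovered library size below, called 6012 higher and 1084 lower, with the median at 0.74. The 6 members that rose averaged between 2.39 and 9.38 FPKM in controls, and the 2 that fell averaged 30.3 and 101.8 FPKM. In bulk RNA, a smaller share of cells that express a gene and less of its RNA per cell cannot be told apart.

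**Figure D1:**
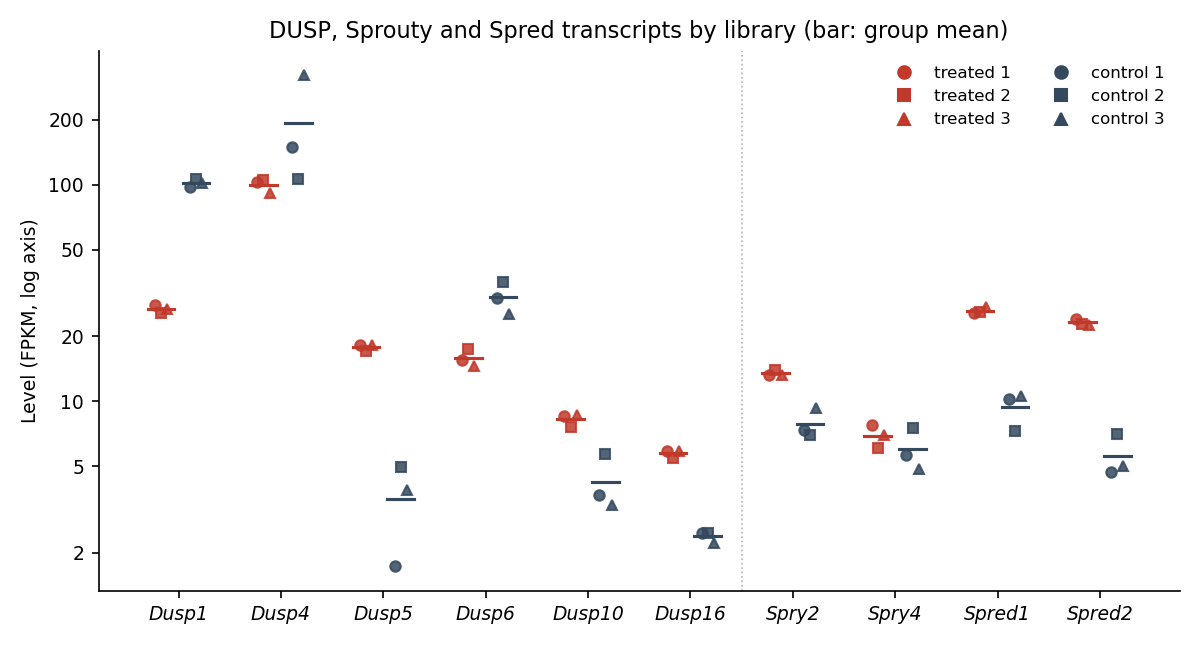
Level of each member in each library (FPKM, log axis), with treated libraries in red on the left of each pair and control libraries in dark blue on the right. Points are single libraries and bars are group means. Treated points lie above all control points for 6 genes and below them for 3, and those of Spry4 overlap.

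Dusp1 encodes a nuclear, rapidly induced phosphatase of p38, JNK and ERK. Its transcript stood at 27.9, 25.7 and 26.7 FPKM in treated 1, 2 and 3, against 97.3, 106.6 and 101.6 FPKM in control 1, 2 and 3. The groups lay far apart, and both were tight, with a coefficient of variation of 4.12% in treated and 4.53% in control samples. The level averaged 26.8 ± 1.10 FPKM in treated and 101.8 ± 4.62 FPKM in control samples (SD, n = 3 each), which is 3.81-fold lower in treated cells. Dusp1 fell by 1.89 on the log2 scale (SE 0.10, limma adjusted p = 0.000181), and 2.69% of all genes had a lower log2 fold change. The gene (ENSMUSG00000024190) lies on chromosome 17, 26505590 to 26562128, minus strand (GRCm38, GENCODE M21, as for all positions of genes here, whose outer ends can lie beyond the RefSeq start), and its exons share 11 bases with those of Ergic1 on the other strand.

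Dusp4, a nuclear and inducible phosphatase of ERK and JNK, had the highest mean level of the members in both groups. It stood at 102.7, 105.7 and 91.7 FPKM in treated samples, against 149.4, 106.5 and 320.4 FPKM in control 1, 2 and 3. Control 3 stood 3.01-fold above control 2, whose value was close to the highest treated one. The means were 100.02 ± 7.39 and 192.1 ± 113 FPKM in treated and control samples (SD, n = 3 each), with a log2 fold change of -0.78 and a 95% interval from -1.73 to 0.17 (limma adjusted p = 0.135). Without control 2 it was called lower (log2 fold change -1.12, limma adjusted p = 0.0278), and without control 3 its log2 fold change was -0.33. The sign of the value turned with equal FPKM totals (0.21), with quantile normalization (0.21) and with the GC, length and level trend removed (0.078). Dusp4 lies on chromosome 8, 34807297 to 34819894, plus strand.

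Dusp5 and Dusp6 both encode phosphatases selective for ERK, in the nucleus and in the cytoplasm, and Dusp5 rose while Dusp6 fell, although Dusp6 turned to 0.071 with equal FPKM totals. Dusp5 stood at 18.2, 17.0 and 18.2 FPKM in treated samples, against 1.73, 4.97 and 3.90 FPKM in control 1, 2 and 3. Every treated sample was above every control, and the controls spread 2.87-fold. Dusp5 averaged 17.8 ± 0.670 FPKM in treated and 3.53 ± 1.65 FPKM in control samples (SD, n = 3 each). It rose 5.03-fold, the most of the members (log2 fold change 2.12 ± 0.29 SE, limma adjusted p = 0.00163), and against single controls the log2 difference was 2.78, 1.65 and 1.94 for control 1, 2 and 3.

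The Dusp5 value has a limit of annotation. Dusp5 (chromosome 19, 53529109 to 53542431, plus strand) shares 547 of its 2473 exon bases with AC137853.2, an antisense gene on the minus strand. AC137853.2 stood at 0.190, 0.300 and 0.0429 FPKM in treated samples, against 8.37, 4.43 and 16.5 FPKM in control samples. It fell by 3.04 on the log2 scale (SE 0.41, limma adjusted p = 0.00159), opposite to Dusp5. No strand setting is given in the sources used here, so reads of both genes cannot be told apart in the shared bases.

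Dusp6 stood at 15.5, 17.4 and 14.5 FPKM in treated samples, against 29.99, 35.5 and 25.3 FPKM in control samples. The groups did not overlap. The means were 15.8 ± 1.46 FPKM in treated and 30.3 ± 5.12 FPKM in control samples (SD, n = 3 each), 1.91-fold lower in treated cells (log2 fold change -0.88 ± 0.15 SE, limma adjusted p = 0.00406). The call depended on the scaling between libraries. With equal FPKM totals the log2 fold change was 0.071 (limma adjusted p = 0.756), which is -0.735 relative to the median of all genes. With the recovered library size (the reads at genes) it was -0.18 (limma adjusted p = 0.440), which is -0.92 relative to that median. With the deposited scaling, the summed level of Dusp5 and Dusp6 was 33.6 ± 0.871 FPKM in treated and 33.8 ± 5.94 FPKM in control samples (SD, n = 3 each). The closeness of these sums rests on that scaling, as with equal FPKM totals Dusp5 was at 2.99 and Dusp6 at 0.071 on the log2 scale. The level of Dusp6 over that of Dusp5 was 0.852, 1.02 and 0.802 in treated 1, 2 and 3, against 17.3, 7.14 and 6.48 in control 1, 2 and 3. Dusp6 lies on chromosome 10, 99263231 to 99267489, plus strand.

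Dusp10 and Dusp16 encode phosphatases that act on JNK and p38. Dusp10 stood at 8.52, 7.64 and 8.65 FPKM in treated samples, against 3.70, 5.69 and 3.31 FPKM in control samples. Control 2 was the nearest control to the treated samples, and the groups did not overlap. Dusp10 rose 1.95-fold, to 8.27 ± 0.550 FPKM in treated samples against 4.23 ± 1.28 FPKM in control samples (SD, n = 3 each), with a log2 fold change of 0.85 ± 0.18 SE (limma adjusted p = 0.00915). Against control 2 alone the log2 difference was 0.47.

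Dusp16 had the lowest mean level of the members in both groups. It stood at 5.88, 5.48 and 5.88 FPKM in treated samples, against 2.47, 2.46 and 2.22 FPKM in control samples. Both groups were narrow, and Dusp16 rose 2.41-fold (log2 fold change 1.00 ± 0.09 SE, limma adjusted p = 0.000541). Summed with Dusp10 it reached 14.02 ± 0.781 FPKM in treated and 6.62 ± 1.37 FPKM in control samples (SD, n = 3 each). Dusp10 lies on chromosome 1, 184013302 to 184075636, plus strand, and Dusp16 on chromosome 6, 134715468 to 134792625, minus strand.

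Together the 6 phosphatase transcripts came to 174.4 ± 7.63 FPKM in treated and 334.4 ± 107 FPKM in control samples (SD, n = 3 each), as a description. This difference rests on the deposited scaling. Column totals of FPKM over all genes were also higher in control samples, from 450409 to 532583, against 235757 to 241953 in treated ones. The makeup of the sum differed between the groups. Dusp1 held 15.4 ± 0.909% of it in treated and 32.4 ± 9.37% in control samples, and Dusp5 held 10.2 ± 0.726% in treated and 1.12 ± 0.686% in control samples. Dusp4 held 57.3 ± 1.86% in treated samples and between 40.7% (control 2) and 70.1% (control 3) in controls. Such shares do not depend on how libraries are scaled. The 4 Sprouty and Spred transcripts came to 70.6, 68.8 and 70.04 FPKM in treated 1, 2 and 3, against 27.98, 28.9 and 29.7 FPKM in control 1, 2 and 3, so this sum was tight in both groups.

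**Figure D2:**
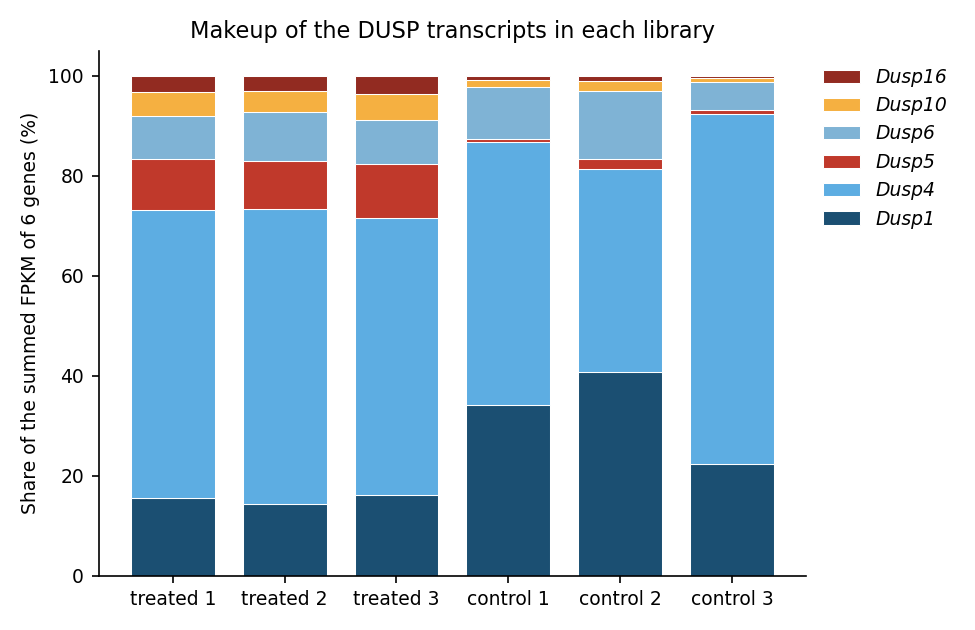
Share of each DUSP gene in the summed FPKM of the 6 phosphatase genes (%), one bar per library, with treated libraries on the left. Dusp1 takes between 14.4% and 16.1% in treated and between 22.2% and 40.7% in control libraries, and Dusp5 between 9.51% and 10.96% in treated and between 0.608% and 1.90% in control libraries.

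Sprouty proteins block receptor signalling upstream of RAF. Spry2 stood at 13.3, 14.02 and 13.2 FPKM in treated samples, against 7.40, 6.996 and 9.26 FPKM in control samples. The groups did not overlap, and control 3 was the highest control. Spry2 rose 1.71-fold, to 13.5 ± 0.45 FPKM in treated against 7.88 ± 1.21 FPKM in control samples (SD, n = 3 each; log2 fold change 0.71 ± 0.13 SE, limma adjusted p = 0.00444). Spry4 stood at 7.74, 6.11 and 6.97 FPKM in treated samples, against 5.63, 7.49 and 4.87 FPKM in control samples. Its groups overlapped through control 2, and the log2 fold change was 0.19 with a 95% interval from -0.21 to 0.60 (limma adjusted p = 0.360). Spry4 was called higher only with the scalings by library total, at 1.06 with equal FPKM totals and 0.97 with the recovered library size, which is 0.26 and 0.23 relative to the median of all genes. Spry2 lies on chromosome 14, 105891947 to 105896819, and Spry4 on chromosome 18, 38586247 to 38601415, both on the minus strand.

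Spred proteins bring neurofibromin, which switches RAS off, to the cell membrane. Spred1 stood at 25.5, 25.9 and 27.2 FPKM in treated samples, against 10.3, 7.30 and 10.6 FPKM in control samples. Control 2 was the lowest control, farther from the treated samples than the others. Spred1 rose 2.79-fold, to 26.2 ± 0.908 FPKM in treated against 9.38 ± 1.81 FPKM in control samples (SD, n = 3 each; log2 fold change 1.40 ± 0.15 SE, limma adjusted p = 0.000819).

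Spred2 stood at 24.1, 22.8 and 22.6 FPKM in treated samples, against 4.70, 7.08 and 5.03 FPKM in control samples. Here control 2 was the highest control and still lay far under the treated range. Spred2 rose 4.14-fold, to 23.2 ± 0.803 FPKM in treated against 5.60 ± 1.29 FPKM in control samples (SD, n = 3 each; log2 fold change 1.89 ± 0.16 SE, limma adjusted p = 0.00038). Of all genes, 98.8% had a lower log2 fold change than Spred2 and 96.1% a lower one than Spred1. The pair summed to 49.4 ± 0.606 FPKM in treated and 15.0 ± 0.615 FPKM in control samples (SD, n = 3 each). Spred1 lies on chromosome 2, 117121374 to 117182279, and Spred2 on chromosome 11, 19924375 to 20024026, both on the plus strand.

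**Figure D3:**
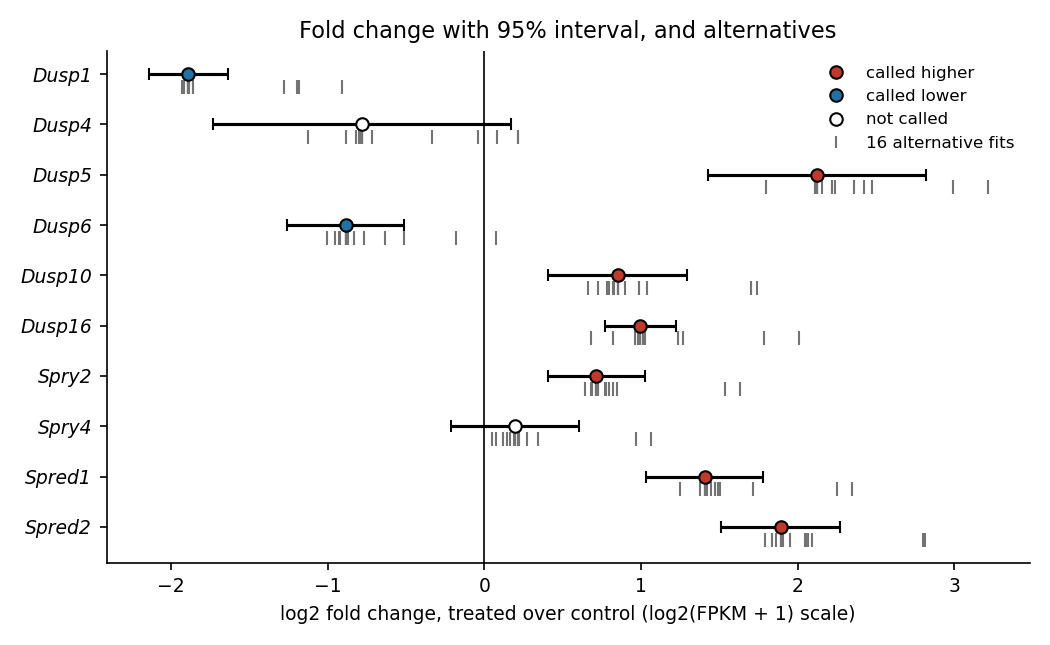
Log2 fold change of each member, treated over control, on the log2(FPKM + 1) scale. Circles are the limma estimates with 95% intervals, filled red where called higher, blue where called lower and white where not called, and grey ticks are 16 alternative fits. The ticks of Dusp4 lie on both sides of 0, as do those of Dusp6 (from -1.003 to 0.071), and those of Dusp1 stay between -1.93 and -0.91.

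The order of the members by level also differed between the groups. In treated samples it ran Dusp4, Dusp1, Spred1, Spred2, Dusp5, Dusp6, Spry2, Dusp10, Spry4 and Dusp16. Neighbours whose ranges overlapped there were Dusp1 with Spred1, Dusp5 with Dusp6, and Dusp10 with Spry4. In control samples it ran Dusp4, Dusp1, Dusp6, Spred1, Spry2, Spry4, Spred2, Dusp10, Dusp5 and Dusp16. In controls the gaps from Dusp1 to Dusp6 and from Dusp6 to Spred1 were clear of the spread, and the ranges of every other pair of neighbours overlapped. The highest member mean was 17.4-fold the lowest in treated and 80.5-fold the lowest in control samples. All 10 members had the larger coefficient of variation in controls, where Dusp4 (58.9%) and Dusp5 (46.7%) varied most. Genes at large also varied more there, with a median SD on the log2 scale of 0.27 in control and 0.07 in treated libraries.

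With the deposited scaling, abundant genes as a whole were lower in treated cells and scarce ones higher, so each member is set beside genes of its own level. With equal FPKM totals the median of all genes was 0.81 instead of -0.015. Only the position of a member relative to its decile is therefore read here. Genes were split into deciles by their mean log2(FPKM + 1) over the 6 libraries, with decile 10 the highest. Dusp1 and Dusp4 were in decile 10, whose median log2 fold change was -0.93, and Dusp6 in decile 9 (-0.51). Dusp1 lay below that median, Dusp4 (-0.78) above it and Dusp6 (-0.88) below its own. Spred1 was in decile 8 (-0.27), Spry2 and Spred2 in decile 7 (-0.083), and Dusp5 and Spry4 in decile 6 (-0.024). Dusp10 was in decile 5 (0.19) and Dusp16 in decile 4 (0.27). All 7 of these lay above the median of their decile. Once a trend fitted on GC content, length and level was taken out, the same 8 members were called, at -1.28 for Dusp1, -0.63 for Dusp6, 2.24 for Dusp5, 1.95 for Spred2, 1.445 for Spred1, 0.77 for Spry2, 0.68 for Dusp16 and 0.66 for Dusp10.

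**Figure D4:**
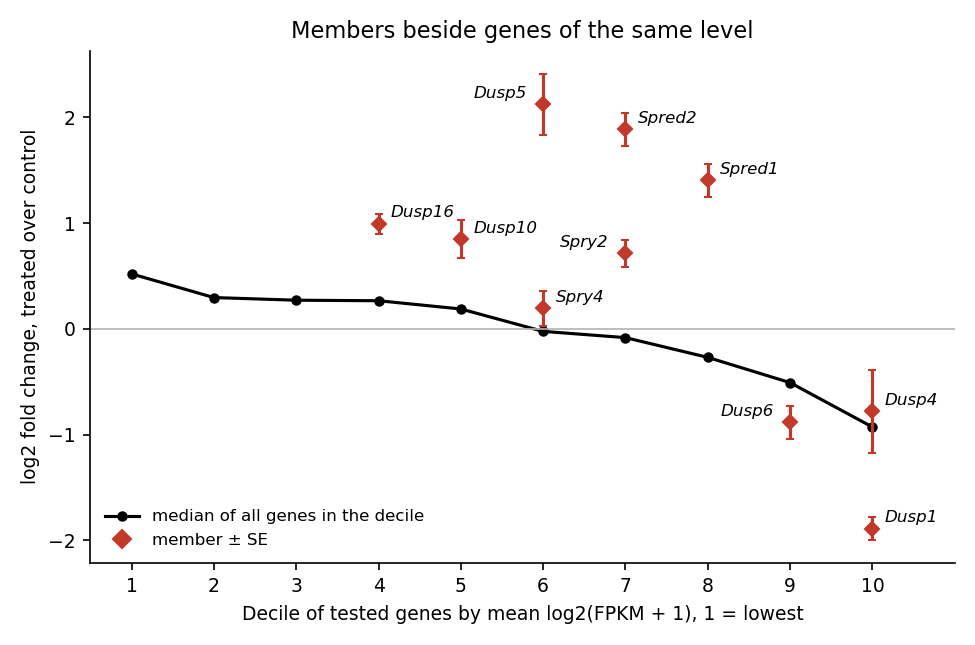
Log2 fold change of each member (red, ± SE) against the decile of tested genes it falls in by mean level, with the median of all genes in each decile in black. With the deposited scaling, the black line runs from 0.52 in decile 1 to -0.93 in decile 10. Dusp5, Spred1 and Spred2 stand farthest above it and Dusp1 farthest below, while Dusp4 and Dusp6, whose sign turned with equal FPKM totals, and Spry4 lie nearer to it.

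Other phosphatase, Sprouty and Spred genes did not share 1 direction. Of 6 tested, 1 rose and 3 fell (median log2 fold change -0.39), against 3 higher and 0 lower with equal FPKM totals. Of all genes tested, 27.9% were higher and 28.3% lower, and this and the following lists are to be read beside those shares. Spred3, the remaining Spred gene, rose to 8.10 ± 0.890 FPKM in treated against 4.44 ± 0.534 FPKM in control samples (SD, n = 3 each; limma adjusted p = 0.004). Dusp7, a cytoplasmic ERK phosphatase close to Dusp6, was 1.70-fold lower in treated samples (limma adjusted p = 0.00183), a sign that turned with equal FPKM totals (log2 fold change 0.22). The other 2 that fell, named after their values were seen, were Dusp2, a nuclear phosphatase (limma adjusted p = 0.0249, called in 7 of 16 alternatives), and Spry1 (limma adjusted p = 0.00691, called in 13 of the 15 alternatives that tested it). Of 9 tested atypical DUSP genes, which lack the kinase-binding domain, 2 rose and 2 fell (median -0.23), or 44.4% called against 56.1% of all genes. The split was 5 higher and 0 lower with equal FPKM totals, 2 higher and 5 lower with quantile normalization, and 0 were lower without treated 1, 2 or 3 or control 1. Dusp23 was 3.00-fold higher (limma adjusted p = 0.0112) and Dusp3 1.66-fold lower (limma adjusted p = 0.0206), the value of Dusp3 turning positive with both scalings by library total.

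Among 22 genes of the cascade from RAS to ERK, 9 rose and 4 fell (median log2 fold change 0.33). This made 59.1% called, close to the 56.1% of all genes. The split was 18 higher and 0 lower with equal FPKM totals, and 3 higher and 2 lower without treated 1, 2 or 3 or control 1. Gab1, a docking protein of receptor signalling, rose 4.26-fold, to 4.07 ± 0.0491 FPKM in treated against 0.957 ± 0.269 FPKM in control samples (SD, n = 3 each; limma adjusted p = 0.000484). Pebp1, the RAF kinase inhibitor protein, was 2.44-fold lower (limma adjusted p = 0.000591), and was not called in 3 of 16 alternatives. Mapk3, which encodes ERK1, was 1.63-fold lower (limma adjusted p = 0.0418), a call kept in 6 of 16 alternatives, with log2 fold changes between -0.82 and 0.33. Nf1, the neurofibromin gene, averaged 10.95 ± 0.783 FPKM in treated and 9.40 ± 2.52 FPKM in control samples (limma adjusted p = 0.348).

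Of 15 tested genes of the JNK and p38 chains, 5 rose and 4 fell (median log2 fold change 0.0057), or 60% called against 56.1% of all genes. The split was 11 higher and 0 lower with equal FPKM totals, 3 higher and 2 lower without treated 1, 2 or 3, and 4 higher and 2 lower without control 1. Map3k7, the kinase TAK1, rose 2.67-fold (limma adjusted p = 0.000988), and Mapkapk2, a kinase downstream of p38, was 2.05-fold lower (limma adjusted p = 0.00231), a call lost in 4 of 16 alternatives. Mapk14, the p38 alpha gene, rose 1.32-fold (limma adjusted p = 0.0154), a call lost in 4 of 16. Mapk8, the JNK1 gene, averaged 1.35 ± 0.0786 FPKM in treated and 0.8999 ± 0.457 FPKM in control samples (limma adjusted p = 0.177).

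Of 11 tested transcripts that ERK is known to induce, 3 were higher and 4 lower (median log2 fold change -0.47). Among all genes 27.9% were higher and 28.3% lower. The split was 5 higher and 1 lower with equal FPKM totals, and 4 higher and 6 lower without control 3. Egr1, an immediate early factor, stood at 10.8, 9.90 and 10.9 FPKM in treated samples, against 0.299, 0.703 and 0.247 FPKM in control samples, and rose by 3.04 on the log2 scale (limma adjusted p = 0.000136). Fosl1, an AP-1 subunit, rose 7.20-fold (limma adjusted p = 0.00161), while Fos, another AP-1 subunit, was 4.09-fold lower (limma adjusted p = 0.000668). Etv5 and Etv4 are ETS factors often read beside Dusp6. Etv5 rose 1.90-fold (limma adjusted p = 0.0395, called in 10 of 16 alternatives), and Etv4 averaged 48.2 ± 1.84 FPKM in treated and 69.6 ± 22.7 FPKM in control samples (limma adjusted p = 0.133). Phlda1 (2.09-fold) and Myc (2.46-fold) were lower (limma adjusted p = 0.0101 and 0.008, called in 13 and 14 of 16 alternatives). Ccnd1, the cyclin D1 gene, averaged 15.7 ± 0.180 FPKM in treated and 14.7 ± 4.27 FPKM in control samples (limma adjusted p = 0.624).

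Of 13 genes that act on the members' transcription or mRNA decay, 6 rose and 2 fell (median log2 fold change 0.27), against 10 higher and 0 lower with equal FPKM totals. The deposited scaling thus called 61.5% of them, beside 56.1% of all genes. Mrtfa, a coactivator of serum response factor, rose 3.78-fold, to 7.34 ± 0.180 FPKM in treated against 1.94 ± 0.346 FPKM in control samples (SD, n = 3 each; limma adjusted p = 0.000344). Zfp36, an mRNA decay factor that binds AU-rich elements, was 2.48-fold lower (limma adjusted p = 0.000675), and was not called with equal FPKM totals (limma adjusted p = 0.167). The other that fell, named after its values were seen, was Srf, which encodes serum response factor (2.25-fold, limma adjusted p = 0.00869, called in 13 of 16 alternatives). Of 9 partners of Sprouty and Spred proteins, 1 rose and 1 fell, or 22.2% called. The split was 8 higher and 0 lower with equal FPKM totals, 3 higher and 1 lower with quantile normalization and with the trend removed, 2 higher and 2 lower without control 2, and 3 higher and 2 lower without control 3. Cbl, a ubiquitin ligase bound by Sprouty proteins, rose 3.85-fold (limma adjusted p = 0.000378), and Mknk1, a kinase activated by ERK and p38, was 1.59-fold lower (limma adjusted p = 0.008), with a positive value under both scalings by library total.

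**Figure D5:**
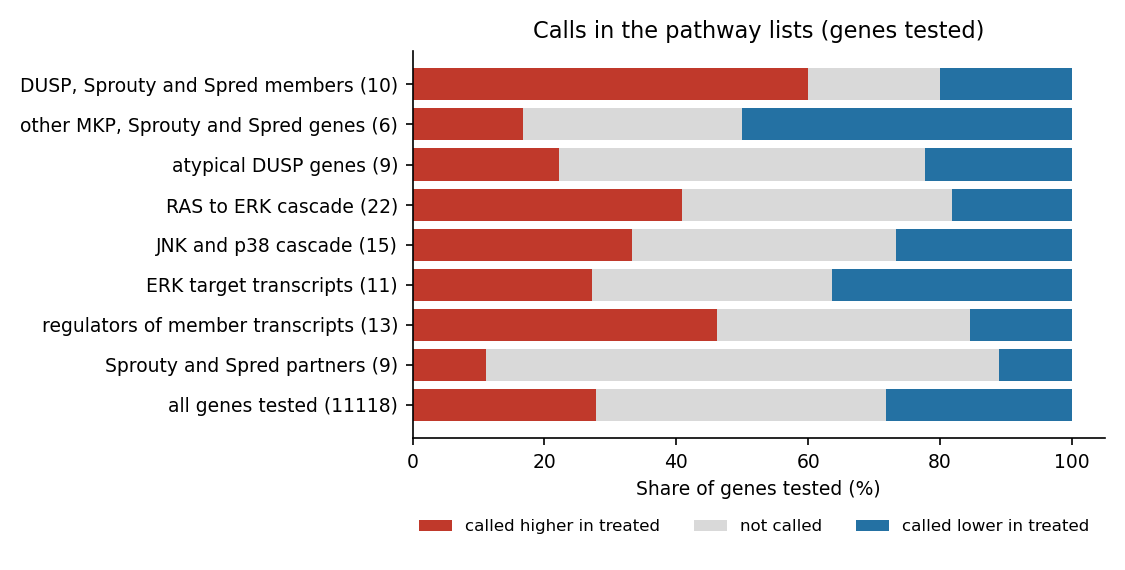
Share of tested genes called higher (red), not called (grey) and called lower (blue) in treated against control samples, by list (%), with the number of genes tested in brackets. The members show 6 of 10 higher and 2 lower, 1 of which turned with equal FPKM totals, beside 27.9% higher and 28.3% lower among all genes.

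For each member, the gene with the most similar profile over the 6 libraries was found among 5897 genes with a mean of at least 5 FPKM. Because 2 groups of 3 make up the profile, many genes score high, and the value is a description. The nearest to Dusp1 was Tor3a (Pearson r = 0.9998), with 949 genes above an r of 0.95. The nearest to Dusp5 was Dtwd1, to Dusp16 Limd1, to Spry2 Otud7b, to Spred1 Man2a1 and to Spred2 Csf1, each with r between 0.9984 and 0.9998. Egln2 was nearest to Dusp4 (0.9988), Pfdn1 to Dusp6 (0.9979) and Qrich1 to Dusp10 (0.9962). Spry4, which did not separate the groups, had 8 genes above 0.95, with Rbfox2 nearest (0.974).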

How the data were processed

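The authors deposited 1 FPKM value per gene and sample, per the file headers. The aligner, the counter, the build, the annotation and the strand setting: not given in the sources used here. Symbols, positions (GRCm38) and exon lengths came from GENCODE M21 by identifier, which named 52073 of 56748 identifiers. With these lengths, at least 92.3% of values under 200 reads were whole multiples of 1 read within 0.02, as was every member's value, which gave the depths. The 95% intervals are limma's and rest on the spread between samples. Column totals of FPKM ran from 235757 to 241953 in treated and from 450409 to 532583 in control samples, so fold changes are relative to the authors' scaling between libraries. The fit took genes that reached 1 FPKM in 3 libraries or more and used limma 3.58.1 (R 4.3.3, trended variance, group only) on log2(FPKM + 1), which understates the change of low genes. The procedure was run on simulated data that gave both groups the same spread, unlike these data, so that run does not bear on the p-values here. Replicates of 1 group differed by more than counting error. The 14 planned and 2 added alternatives are described in the closing section. Promoters are from RefSeq (GRCm38.p6). Members, lists and tests were chosen with earlier results of these data known. The rule for other named genes took the called gene with the smallest p in each direction of each list, 14 fixed genes (1 of them not reported here), and the gene most alike each member. Outside it, cell type markers are named to describe the libraries, AC137853.2 and Ergic1 for their overlap with members, and Dusp2, Spry1 and Srf to complete counts, chosen after their values were seen. Spry3 was not analysed here.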

Additional observations from a re-analysis of the deposited data

How the results depend on the processing

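Dusp1, Dusp5, Dusp10, Dusp16, Spry2, Spred1 and Spred2 kept their direction and their call in all 16 alternatives. Their log2 fold changes ran from -1.93 to -0.91, 1.80 to 3.21, 0.66 to 1.74, 0.68 to 2.01, 0.64 to 1.63, 1.25 to 2.34 and 1.79 to 2.81. Dusp6 was not called in 2 of 16, at 0.071 with equal FPKM totals and -0.18 with the recovered library size only (reads at genes). Those scalings moved the median of all genes to 0.81 and 0.74, called 7 members higher and 1 lower, and called Spry4 higher (1.06 and 0.97). They called 7172 and 6012 of all genes higher and 736 and 1084 lower, and 59 and 53 of 84 pathway genes higher and 1 and 4 lower, where the deposited scaling gave 27 and 20. The log2 fold change of Dusp4 was 0.21 with equal FPKM totals, 0.21 with quantile normalization and 0.078 with the GC, length and level trend removed. With that trend removed, 12 pathway genes were lower. A minimum of 5 FPKM gave 1385 genes higher. Without 1 library at a time, Dusp4 ran from -1.12 to -0.33, and was called without control 2. Pathway genes called higher ran from 15 to 33 and lower from 13 to 26, at 15, 15, 16 and 17 higher and 13 lower each without treated 1, 2, 3 and control 1, and at their highest without control 2 (33 higher) and control 3 (26 lower). Same-numbered samples did not deviate together (r = -0.05, -0.11 and -0.14 for numbers 1, 2 and 3). With 3 samples a group, this cannot settle whether the numbers pair them. With a replicate block, 2618 genes were higher and 2669 lower, and 6 members higher and 2 lower. The recovered-read fits were chosen after seeing the data. The cause of these changes was not tested. With 3 samples a group, small differences such as that of Spry4 could not be resolved.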
